A study of Mus musculus with 14 samples.

Results

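Endothelial identity genes are genes whose products mark or maintain the cells that line blood vessels. A panel of 32 such genes was followed here in mouse aorta and in CD115+ blood cells, and 31 of them were measured by a probe set (the group of array probes that reports on a transcript) paired with 1 gene symbol. These 31 stand among 22180 genes measured in this way, and each had 1 probe set. Rasip1, an adaptor that opens the vessel lumen, shared its probe set with Izumo1 and was left out. Members were taken by gene name.

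All mice were male, lacked apolipoprotein E and ate a Western type diet for 4 weeks from 8 weeks of age, so that they were 12 weeks old at sampling. Mice without apolipoprotein E accumulate remnant lipoproteins and develop atherosclerosis, and the ApoE-deficient littermates that served as controls share this state. The double-deficient mice also lacked LTbR, the lymphotoxin beta receptor encoded by Ltbr, through which stromal cells, endothelium among them, and myeloid cells receive signals from lymphocytes. Aorta with its perivascular fat was taken from 4 double-deficient and 4 ApoE-deficient animals. Blood cells bearing CD115, the growth factor receptor that marks monocytes, were isolated with beads in 3 double-deficient and 3 ApoE-deficient preparations. The ApoE-deficient preparations numbered 3 and 4 combined 2 littermates each. The comparison asked what loss of the receptor changed in each tissue.

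Endothelial cells are specified and kept in their state by transcription factors of the ETS family (Erg, Fli1), the SOXF group (Sox7, Sox17, Sox18) and the related factors Tal1 and Lyl1. These control receptors for vascular endothelial growth factor (Kdr, Flt1), the angiopoietin receptor Tek with its relative Tie1, and the junctional cadherin Cdh5. In a healthy artery the endothelium makes nitric oxide through Nos3 and keeps leukocytes out, and in atherosclerosis it becomes the layer through which leukocytes enter the wall. Several of the genes are not confined to vessels. Fli1, Lyl1, Klf2, Icam2 and Pecam1 are also made by leukocytes, and Tal1 and Cd34 by blood progenitors.

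Values are log2 signals centred on each probe set's median within a tissue, which means that levels cannot be compared between genes or between tissues. Differences are double-deficient minus ApoE-deficient. Ltbr itself was lower in the double-deficient aortas, at -0.98, -1.10, -1.29 and -0.49, against 0.63, 0.49, 0.70 and 0.89 in the ApoE-deficient aortas, a difference of -1.64 (SE 0.17, adjusted p = 0.0679, limma). In CD115+ cells it stood at -0.07, -0.62 and -0.44 in double-deficient preparations, against 0.55, 0.07 and 0.40 in ApoE-deficient preparations (difference -0.72, SE 0.18, adjusted p = 0.976, limma). The groups did not overlap in either tissue, and whether the probes fall inside the deleted stretch is not given, so the remaining signal has no known meaning. A few arrays stood apart from their groups. ApoE-deficient aorta replicate 3 had the lowest lymphocyte marker signal of its group, double-deficient aorta replicate 3 had the lowest endothelial signal, and double-deficient CD115+ replicate 1 stood opposite the other 2 preparations of its group in most endothelial genes.

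A coarse bound on level came from the rounding of the values. Where all usable arrays of a tissue fell on steps of 2 to the power -20, the step of a 32-bit number of 8 or more, the signal was read as at least 8 on the log2 scale throughout that tissue. A probe set below that level meets this by chance in about 1 of 128 cases in aorta and 1 of 32 in CD115+ cells. In aorta 7 of the 31 genes met the bound (Kdr, Pecam1, Cdh5, Emcn, Cd34, Mmrn2 and Fli1), or 22.6%, against 14.2% of all genes. The labelled aorta with fat also had 7 of 12 smooth muscle markers and 10 of 10 adipocyte markers at the bound. In CD115+ cells 3 endothelial genes met it (Pecam1, Cd34 and Fli1), or 9.68%, against 8.8% of all genes. The other 28, Cdh5, Kdr, Tek and Emcn among them, did not meet it in CD115+ cells. Of 12 monocyte markers, 6 were at the bound in CD115+ cells, with Csf1r, the gene of CD115, Cx3cr1 and Ccr2 among them. Markers of other tissues were at the bound there too, 7 of 10 for adipocytes, with Adipoq and Plin1, and 5 of 12 for smooth muscle, with Acta2 and Myh11.

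In the aorta none of the 31 genes passed the threshold (limma, Benjamini-Hochberg adjusted p over all 22180 genes under 0.05), and their adjusted p ran from 0.608 to 0.995. Most stood slightly higher in the double-deficient aortas: 24 of 31 differences were positive, with a median of 0.13, against 52.8% positive and a median of 0.01 over all genes. At an unadjusted p under 0.05, 1 of the 31 was called (3.23%), Lyl1, which was lower, against 7.72% of all genes in either direction. At the adjusted threshold 0.00451% of all genes were called. The groups overlapped for every one of the 31 genes, where 4.3% of all genes had groups that did not overlap (2.19% higher and 2.11% lower). The plot of the 31 genes in the 8 aortas shows this overlap gene by gene. In whole aorta, a different number of endothelial cells and a different amount of RNA per endothelial cell cannot be told apart.

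**Figure D1:**
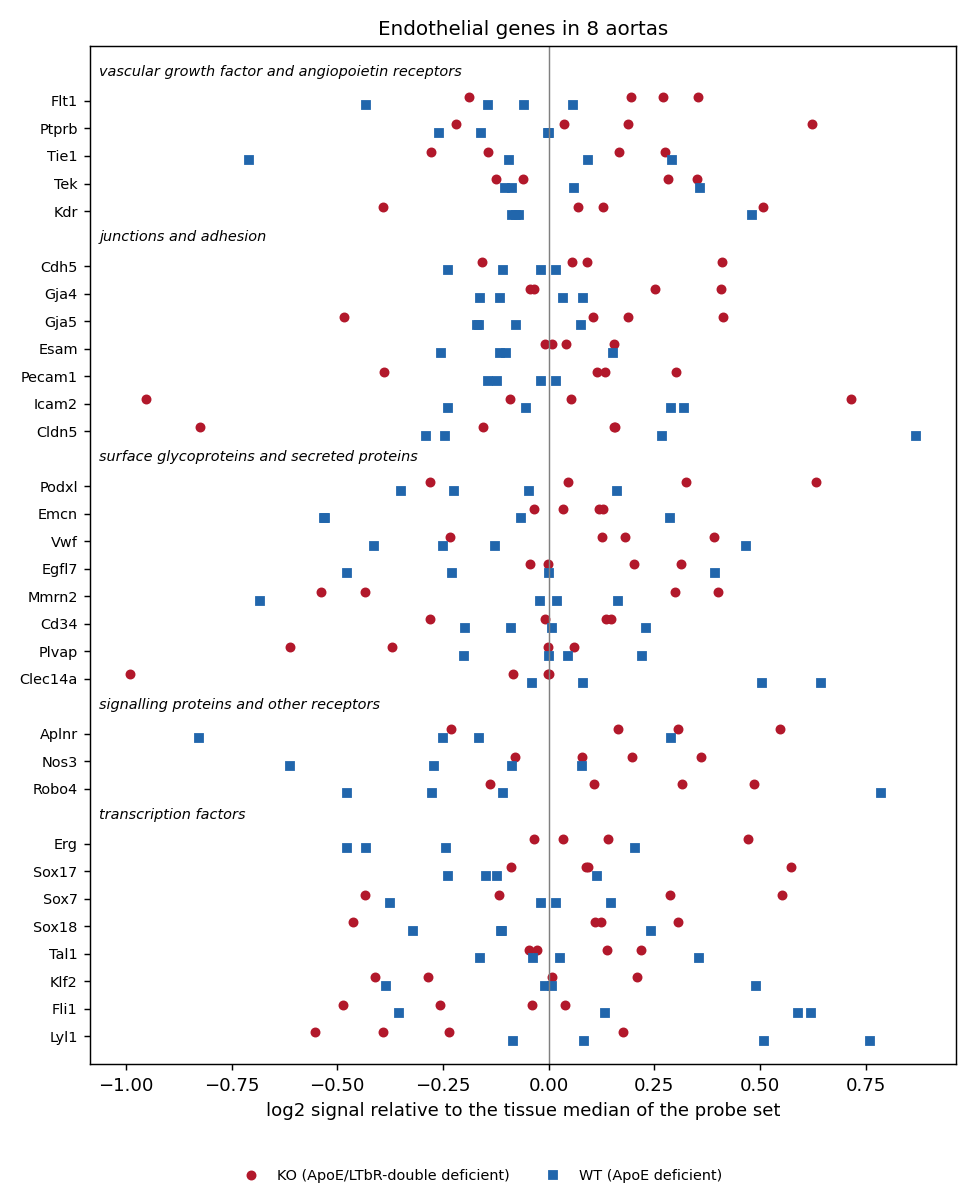
Signal of the 31 endothelial genes in each aorta (x axis, log2 relative to the tissue median), with 4 double-deficient aortas as red circles and 4 ApoE-deficient aortas as blue squares, grouped by role and ordered by the difference. Red and blue points overlap in every row; Lyl1, Fli1 and Clec14a lean to the left in red and Nos3, Erg and Flt1 to the right.

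The receptors for growth factors and angiopoietins gave 5 positive differences of 5, with a median of 0.11. Flt1, a receptor for vascular endothelial growth factor that also acts as its decoy, stood at -0.19, 0.27, 0.19 and 0.35 in double-deficient aortas, against -0.43, -0.06, 0.06 and -0.14 in ApoE-deficient aortas. Its difference was 0.30 (SE 0.15, adjusted p = 0.67, limma). Of the double-deficient aortas 3 lay above all 4 ApoE-deficient ones, and replicate 1 lay within their range. Kdr, the main signalling receptor for the same growth factor, had nearly the same mean in both groups, 0.08 ± 0.37 and 0.06 ± 0.28 (SD, n = 4 each), and its 95% interval ran from -0.46 to 0.50. Ptprb, a phosphatase that damps Tek and Cdh5 signalling, differed by 0.26 (SE 0.17). It was highest in double-deficient replicate 2 at 0.62, and without double-deficient replicate 3 its difference was 0.39 (SE 0.15). Tek and Tie1 differed by 0.05 (SE 0.15) and 0.11 (SE 0.23).

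Among the genes of junctions and adhesion 5 of 7 were positive. Cdh5, the cadherin that holds endothelial cells together, stood at 0.06, 0.09, -0.16 and 0.41 in double-deficient aortas, against 0.02, -0.24, -0.02 and -0.11 in ApoE-deficient aortas (difference 0.19, SE 0.12). The arterial connexin genes Gja4 and Gja5 differed by 0.19 (SE 0.12) and 0.14 (SE 0.18), and Esam, a junctional adhesion protein, by 0.13 (SE 0.09). The difference of Pecam1, the widely used endothelial marker CD31, was 0.11 (SE 0.14), with a 95% interval from -0.22 to 0.44. Cldn5, a tight junction protein, and Icam2, a ligand for leukocyte integrins, were the negative pair at -0.32 (SE 0.32) and -0.15 (SE 0.33). Icam2 ranged from -0.95 to 0.72 within the double-deficient group alone.

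The surface and secreted proteins held 6 positive of 8. Emcn, a sialomucin of the endothelial surface, varied little among double-deficient aortas, at 0.13, 0.03, 0.12 and -0.03, and more among ApoE-deficient aortas, at -0.53, -0.53, 0.29 and -0.06 (difference 0.27, SE 0.18). Podxl, Egfl7 and Vwf, the gene of von Willebrand factor, differed by 0.30 (SE 0.20), 0.20 (SE 0.18) and 0.20 (SE 0.21). Mmrn2, a matrix ligand of Clec14a, differed by 0.06 (SE 0.27) and Cd34 by 0.01 (SE 0.13). Clec14a, a lectin of sprouting endothelium, averaged -0.27 ± 0.48 in double-deficient and 0.30 ± 0.33 in ApoE-deficient aortas (SD, n = 4 each). Its difference of -0.57 (SE 0.26, adjusted p = 0.657, limma) came with double-deficient replicate 3 far below the rest, at -0.99, and the groups overlapped. Plvap, the protein of the diaphragms that span endothelial pores, differed by -0.25 (SE 0.17).

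All 3 signalling genes were positive. Nos3, the nitric oxide synthase of endothelium, stood at 0.08, 0.36, 0.20 and -0.08 in double-deficient aortas, against -0.61, -0.27, 0.08 and -0.09 in ApoE-deficient aortas. This was a difference of 0.36 (SE 0.16, adjusted p = 0.654, limma), or 1.28-fold, with a 95% interval from -0.01 to 0.73. Aplnr, the receptor for apelin, averaged 0.20 ± 0.33 in double-deficient and -0.24 ± 0.46 in ApoE-deficient aortas (SD, n = 4 each; difference 0.44, SE 0.25). Robo4, a guidance receptor that stabilises vessels, differed by 0.21 (SE 0.27).

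The transcription factors split. Erg, the ETS factor most closely tied to endothelial identity, stood at 0.47, 0.03, -0.03 and 0.14 in double-deficient aortas, against 0.21, -0.43, -0.24 and -0.48 in ApoE-deficient aortas (difference 0.39, SE 0.17, adjusted p = 0.654, limma). ApoE-deficient replicate 1 was the array that overlapped. Sox17, which directs arterial fate, differed by 0.26 (SE 0.15), Sox7 by 0.13 (SE 0.22), Sox18 by 0.10 (SE 0.18) and Tal1 by 0.03 (SE 0.12). Lyl1, a helix-loop-helix factor of endothelium and blood cells, stood at 0.18, -0.23, -0.55 and -0.39 in double-deficient aortas, against 0.76, 0.08, -0.08 and 0.51 in ApoE-deficient aortas. Its difference of -0.57 (SE 0.22, adjusted p = 0.608, limma) was 1.48-fold lower, and an exact two-sided permutation test gave 0.0857, where the smallest p that 4 against 4 arrays allow is 0.0286. Fli1, an ETS factor shared with leukocytes, averaged -0.19 ± 0.24 in double-deficient and 0.25 ± 0.46 in ApoE-deficient aortas (SD, n = 4 each; difference -0.43, SE 0.23). Klf2, a factor that laminar flow induces in endothelium, differed by -0.15 (SE 0.21).

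The promoters of Lyl1 and Tal1 are shown because these related factors had the smallest p in aorta and in CD115+ cells, and because ETS factors such as Erg and Fli1 bind the core GGAA. The 250 bases before the start of transcription are from RefSeq on build GRCm38.p6, plus strand, at chr8:84701207-84701456 for Lyl1 and chr4:115056176-115056425 for the first listed of the 2 Tal1 starts. Capitals mark GGAA on either strand (GGAA or TTCC).
Lyl1: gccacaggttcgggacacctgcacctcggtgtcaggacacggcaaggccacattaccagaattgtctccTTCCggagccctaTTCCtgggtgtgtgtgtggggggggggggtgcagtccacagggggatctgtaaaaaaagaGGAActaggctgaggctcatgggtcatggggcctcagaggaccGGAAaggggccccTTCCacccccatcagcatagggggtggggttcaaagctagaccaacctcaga
Tal1: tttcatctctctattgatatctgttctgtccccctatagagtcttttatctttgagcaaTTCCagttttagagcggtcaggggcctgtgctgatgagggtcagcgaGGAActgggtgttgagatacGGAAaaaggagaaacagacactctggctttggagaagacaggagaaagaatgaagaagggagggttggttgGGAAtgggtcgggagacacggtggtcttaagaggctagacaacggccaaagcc
The Lyl1 window held 5 matches, 2 of them within the longer CCGGAA (either strand, and so overlapping GGAA), and the Tal1 window 4, with none of the longer motif. Promoters were found for 17 of the 32 genes. GGAA was in 15 of these 17 (88.2%), against 93.4% of 27025 promoters taken 1 per gene, and CCGGAA in 2 of 17 (11.8%), against 12.2%. A match is a description of letters and not a site of binding.

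The rest of the endothelial programme in aorta was read from lists of other genes, of which none passed the adjusted threshold. Of 25 further pan-endothelial genes 17 were positive (median 0.08), and 4 were higher at an unadjusted p under 0.05, where 3.91% of all genes were higher. They were Myct1 at 0.65 (SE 0.15), Eng, a co-receptor for transforming growth factor beta, at 0.39 (SE 0.10), Sox13 at 0.36 (SE 0.11) and Ece1, which activates endothelin, at 0.24 (SE 0.09). For Myct1, Eng and Sox13 the groups did not overlap, where 2.19% of all genes were higher without overlap. Of 11 junction partners 10 were positive (median 0.22), and 4 were higher at the same threshold. Ctnnd1, the p120 catenin that keeps Cdh5 at the surface, differed by 0.39 (SE 0.10), and the tight junction genes Tjp1 and Ocln by 0.43 (SE 0.15) and 0.19 (SE 0.07). Afdn, a junctional scaffold, differed by 0.36 (SE 0.15). Many cells other than endothelium use these junction genes.

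Of 18 further endothelial transcription factors 11 were positive, and 4 were lower and 1 higher at an unadjusted p under 0.05, where 3.81% of all genes were lower. Hhex was at -0.91 (SE 0.22), Mef2c at -0.64 (SE 0.18) and Etv6 at -0.51 (SE 0.17). Ets1 made up the 4, at -0.68, and was named after its value was seen. Mef2c was averaged over more than 1 probe set. With its probe set of largest SD alone it was at -0.62 (SE 0.32), not past the unadjusted threshold. All of these lower factors are also active in blood cells, and whether blood cells contributed to their values was not tested. Foxc1, a factor of mural and endothelial cells, was at 0.46 (SE 0.15). Among 10 venous and lymphatic genes 5 were positive. Nrp2, a co-receptor for lymphatic growth factors, was at 0.58 (SE 0.13) without overlap, where 2.19% of all genes were higher without overlap. Prox1, the master factor of lymphatic endothelium, was at -0.60 (SE 0.21). Of 14 arterial and Notch genes 8 were positive, with Nrp1 at 0.33 (SE 0.12) the 1 past the unadjusted threshold. Of 9 genes of fat capillaries 6 were positive, with Lpl, which adipocytes make, at 0.28 (SE 0.09). Of the 11 ligands for the receptors in the panel 9 were positive (median 0.16) and 0 passed even unadjusted, with Vegfc at -0.39 (SE 0.18).

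Markers of other cells were read in the same aortas. None of the T cell, B cell, smooth muscle or adipocyte markers passed the adjusted threshold, with the smallest adjusted p at 0.266 (Cd4, limma). At an unadjusted p under 0.05, 8 of 10 T cell and 9 of 11 B cell markers were lower, where 3.81% of all genes were lower. At that threshold 3 of 12 smooth muscle markers and 1 of 10 adipocyte markers were higher, where 3.91% of all genes were higher. Of the T cell list 10 of 10 genes were negative (median -1.38). Its mean ran from -0.91 to -0.24 in double-deficient and from 0.04 to 1.18 in ApoE-deficient aortas. Of the B cell list 10 of 11 were negative (median -1.70), with means from -0.37 to -0.14 in double-deficient and from -0.21 to 2.13 in ApoE-deficient aortas. Smooth muscle and adipocyte lists were positive in 11 of 12 and 8 of 10 genes (medians 0.31 and 0.16). The endothelial panel averaged 0.15, 0.14, -0.24 and 0.08 in double-deficient aortas, against 0.07, -0.05, -0.05 and -0.09 in ApoE-deficient aortas, so that its groups overlapped through double-deficient replicate 3. That aorta was the lowest of the 8 for 13 of the 31 genes. Markers of mesothelium, the lining of the body cavities, averaged 0.65 in it, with 7 of 8 genes above 0. They averaged -0.06, -0.16 and -0.20 in double-deficient replicates 1, 2 and 4, against -0.33, 0.89, 0.12 and 0.03 in ApoE-deficient aortas. The plot of list means shows how small these endothelial differences were beside those of the lymphocyte lists. The part of these other cells in the endothelial values was not tested.

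**Figure D2:**
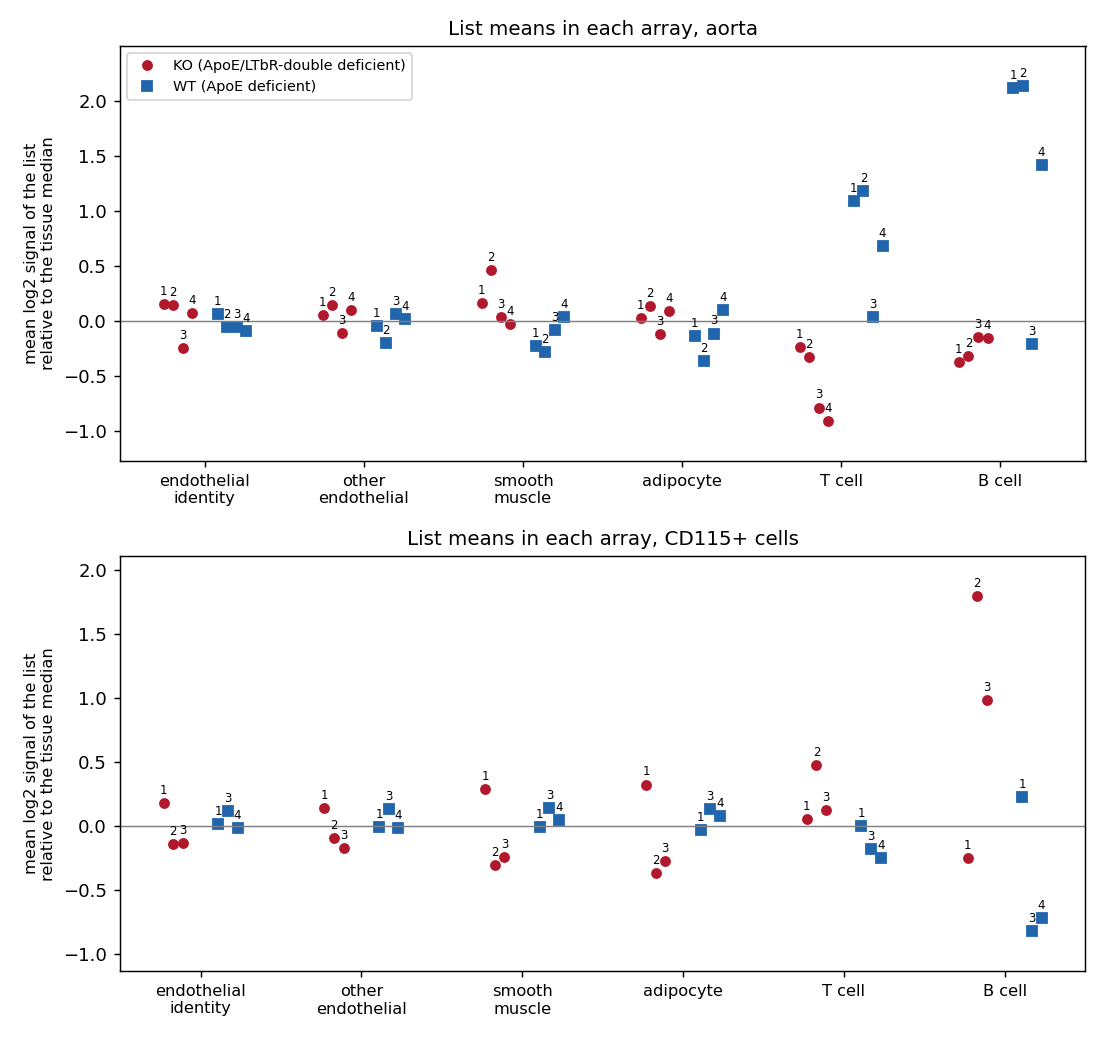
Mean log2 signal of 6 gene lists in each array relative to the tissue median (y axis), aorta above and CD115+ cells below, with double-deficient arrays as red circles left of ApoE-deficient arrays as blue squares; digits are replicate numbers. In aorta the endothelial means lie between -0.24 and 0.15 while B cell means reach 2.13, and in CD115+ cells double-deficient replicate 1 stands above replicates 2 and 3 for the endothelial, smooth muscle and adipocyte lists and below them for B cells.

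Single aortas set much of the aorta result. Positive differences, 24 of 31 in the full data, fell to 20 (median 0.08) without double-deficient replicate 2, where 0 passed unadjusted. They fell to 21 without double-deficient replicate 1, double-deficient replicate 4 or ApoE-deficient replicate 4. Double-deficient replicate 3 was singled out by the values of these same genes, so the fit without it is a description and not a test. Without double-deficient replicate 3, 25 of 31 genes were positive with a median of 0.25. Pecam1 (0.25, SE 0.08), Cdh5 (0.27, SE 0.11), Gja5 (0.32, SE 0.10) and Ptprb were then higher at an unadjusted p under 0.05, where 7.56% of all genes were called (4.43% higher and 3.13% lower). Without ApoE-deficient replicate 3, 6 genes were called at that threshold, against 9.79% of all genes (4.63% higher and 5.16% lower). No other aorta left out gave more such genes, so this fit too is a description and not a test. Nos3 (0.46, SE 0.15), Emcn (0.44, SE 0.13) and Robo4 (0.48, SE 0.17) were higher, and Lyl1 (-0.70, SE 0.22), Fli1 (-0.63, SE 0.17) and Clec14a (-0.68, SE 0.28) were lower. None passed the adjusted threshold in any of these fits. For 27 of the 31 genes the 95% interval of the full data lay within 1 on the log2 scale in both directions, and the exceptions were Lyl1, Clec14a, Cldn5 and Aplnr.

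In CD115+ blood cells again none of the 31 genes passed the adjusted threshold, and no gene of all 22180 did (0%). Of the 31 differences 8 were positive and 23 negative, with a median of -0.08, against 44.7% positive and a median of -0.01 over all genes. This count rested on single preparations: 14 of 31 were positive without double-deficient replicate 2 (median -0.02), 13 without double-deficient replicate 3, 12 without ApoE-deficient replicate 3 and 6 without double-deficient replicate 1. At an unadjusted p under 0.05, 1 of 31 was called (3.23%), Tal1, which was lower, against 4.39% of all genes in either direction. Tal1, a helix-loop-helix factor of blood progenitors, megakaryocytes and red cell precursors as well as endothelium, stood at -0.06, -0.05 and -0.23 in double-deficient preparations, against 0.14, 0.05 and 0.16 in ApoE-deficient preparations. Its difference was -0.23 (SE 0.07, adjusted p = 0.976, limma), or 1.17-fold lower. It was the 1 gene of the 31 whose groups did not overlap, where this held for 9.16% of all genes (3.93% higher and 5.23% lower), and 3 against 3 arrays cannot give an exact p below 0.1. The plot of the 31 genes in the 6 preparations shows double-deficient replicate 1 on the far side of its group for most of the genes.

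**Figure D3:**
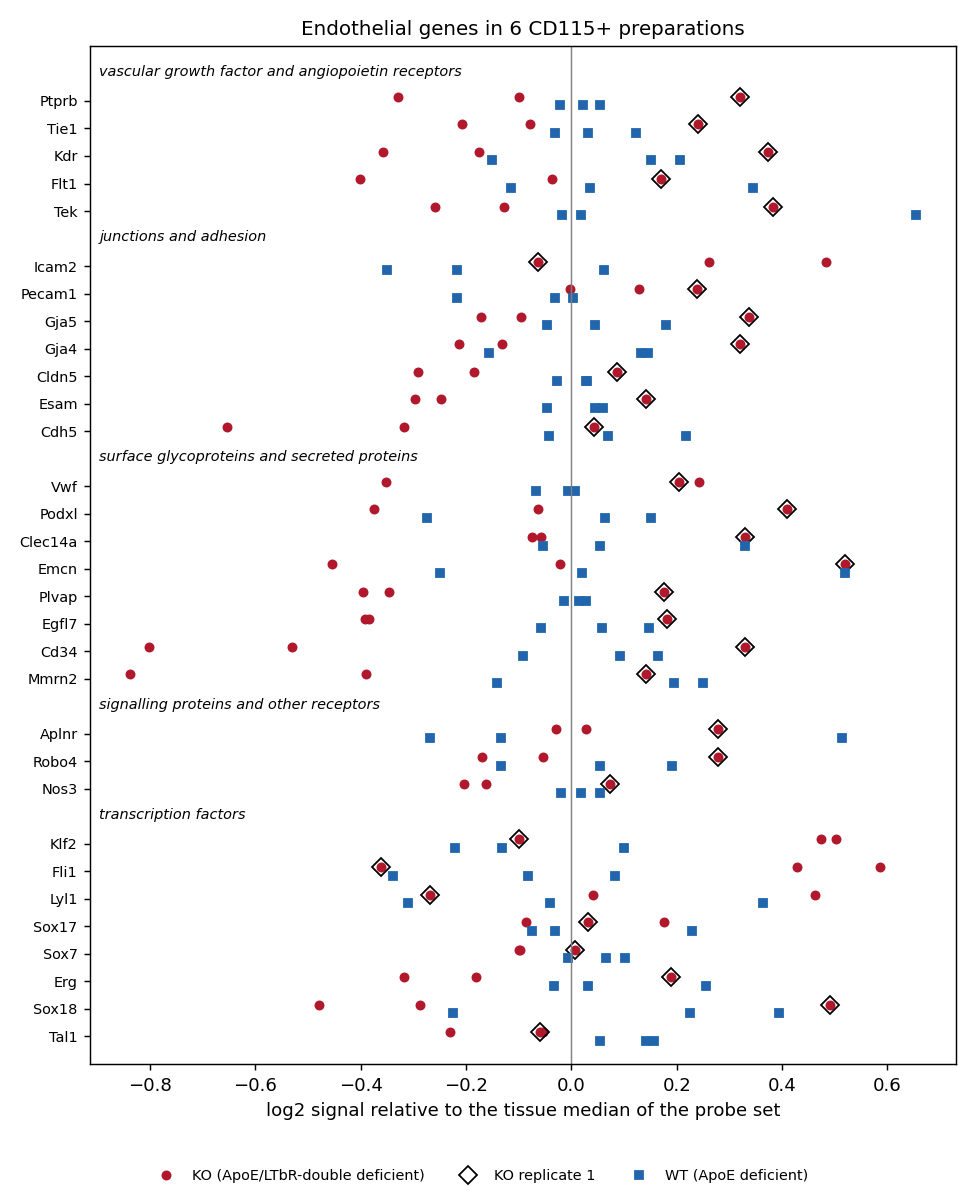
Signal of the 31 endothelial genes in each CD115+ preparation (x axis, log2 relative to the tissue median), with 3 double-deficient preparations as red circles, replicate 1 framed, and 3 ApoE-deficient preparations as blue squares. The framed point lies right of the other red points in most rows and left of them for Klf2, Fli1, Icam2 and Lyl1.

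Positive differences were found for 8 genes, none of them past the unadjusted threshold. Icam2 was at -0.06, 0.48 and 0.26 in double-deficient preparations, against 0.06, -0.35 and -0.22 in ApoE-deficient preparations (difference 0.40, SE 0.17). Klf2, which in lymphocytes maintains quiescence and recirculation, was at -0.10, 0.50 and 0.47 in double-deficient preparations, against 0.10, -0.22 and -0.13 in ApoE-deficient preparations (difference 0.38, SE 0.19). Fli1 was at -0.36, 0.59 and 0.43 in double-deficient preparations, against 0.08, -0.34 and -0.08 in ApoE-deficient preparations (difference 0.33, SE 0.27). In these 3 genes double-deficient replicates 2 and 3 were the highest of the 6 arrays and replicate 1 lay within or below the ApoE-deficient range. Pecam1, which monocytes and platelets carry, differed by 0.20 (SE 0.09), and its groups overlapped by a small margin. Lyl1 differed by 0.07 (SE 0.24). Vwf, Aplnr and Podxl were positive too, at 0.05 (SE 0.17), 0.06 (SE 0.22) and 0.01 (SE 0.22).

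Negative differences were found for the other 23 genes, of which Tal1 alone was past the unadjusted threshold. Cdh5 was at 0.04, -0.32 and -0.65 in double-deficient preparations, against -0.04, 0.22 and 0.07 in ApoE-deficient preparations (difference -0.39, SE 0.18). Mmrn2 was at 0.14, -0.84 and -0.39 in double-deficient preparations, against -0.14, 0.19 and 0.25 in ApoE-deficient preparations (difference -0.46, SE 0.26). Cd34 was at 0.33, -0.80 and -0.53 in double-deficient preparations, against -0.09, 0.16 and 0.09 in ApoE-deficient preparations (difference -0.39, SE 0.29). In each, double-deficient replicates 2 and 3 were the lowest of the 6 arrays. Egfl7 differed by -0.25 (SE 0.17), Plvap by -0.20 (SE 0.16), Nos3 by -0.12 (SE 0.08), Cldn5 by -0.14 (SE 0.10) and Sox7 by -0.12 (SE 0.06). The 5 growth factor and angiopoietin receptors were all negative, from -0.22 for Tek to -0.05 for Ptprb. The factors Erg and Sox18 differed by -0.19 (SE 0.15) and -0.22 (SE 0.29), and Esam by -0.15 (SE 0.12). Emcn, Gja4, Clec14a, Gja5 and Robo4 lay between -0.08 and -0.02, and the groups of Sox17 had nearly equal means. For 29 of 31 genes the 95% interval lay within 1 on the log2 scale, with Mmrn2 and Cd34 as the exceptions.

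Much of the CD115+ comparison turned on double-deficient replicate 1. It was the highest of the 6 preparations for 16 of the 31 genes, while replicates 2 and 3 were the lowest for 14 and 11. The panel averaged 0.18, -0.15 and -0.14 in double-deficient preparations, against 0.01, 0.11 and -0.02 in ApoE-deficient preparations. Replicate 1 was singled out by the values of these same genes, so the fit without it is a description and not a test. Without replicate 1, 17 genes were called at an unadjusted p under 0.05, where 16.2% of all genes were, and the median of the 31 was -0.21. Of these 14 were lower, where 8.89% of all genes were lower, and 3 were higher, where 7.27% were. The lower ones were led by Plvap (-0.38, SE 0.05), Cd34 (-0.72, SE 0.12), Egfl7 (-0.44, SE 0.08), Esam (-0.29, SE 0.06) and Cdh5 (-0.57, SE 0.13), and the higher ones were Klf2 (0.57, SE 0.11), Fli1 (0.62, SE 0.14) and Icam2 (0.54, SE 0.14). None passed the adjusted threshold, and the smallest adjusted p was 0.0886 (Plvap, limma). The plot of differences with and without this preparation shows the shift for each gene.

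**Figure D4:**
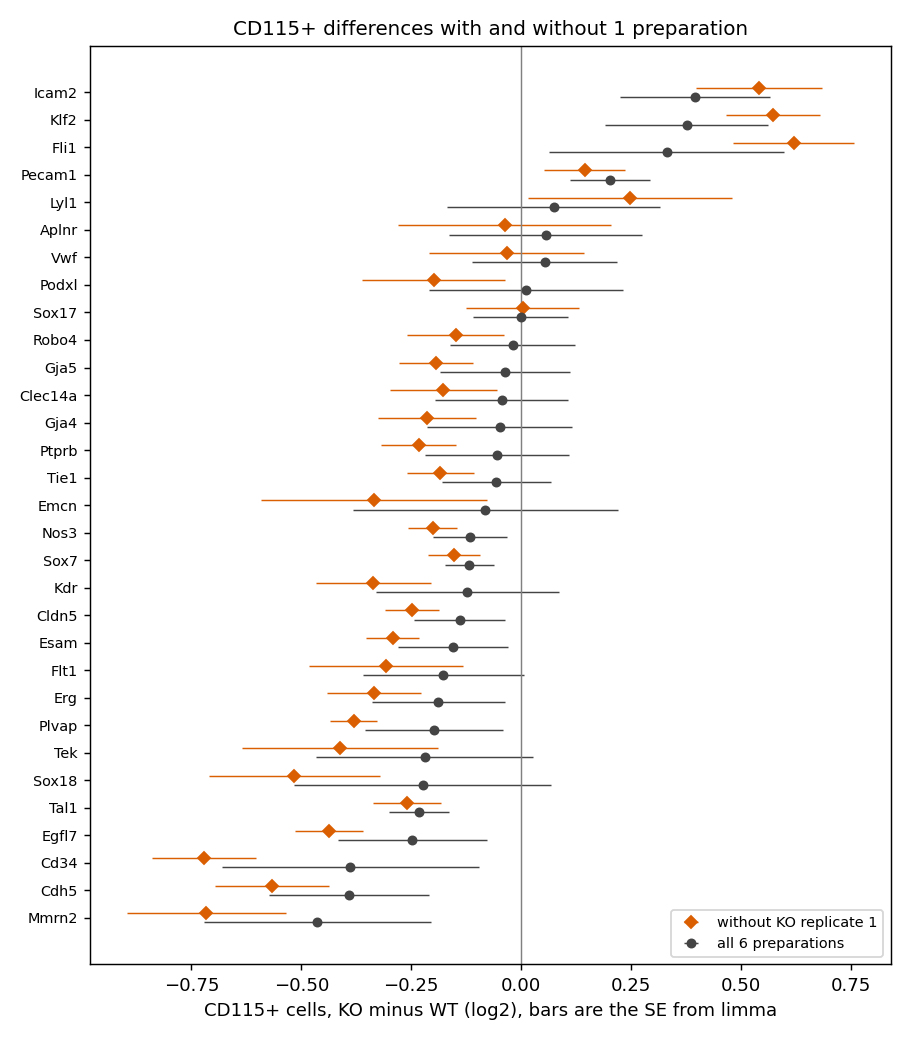
Difference of each endothelial gene in CD115+ cells, double-deficient minus ApoE-deficient (x axis, log2), without double-deficient replicate 1 (orange diamonds) and over all 6 preparations (dark circles), with the SE from limma as bars. Without that preparation Cd34 moves to -0.72 and Mmrn2 to -0.72, while Fli1 moves to 0.62.

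Other lists moved with the same preparations. Adipocyte markers averaged 0.32, -0.37 and -0.28 in double-deficient preparations, against -0.03, 0.13 and 0.07 in ApoE-deficient preparations, and double-deficient replicate 1 was the highest array for 10 of 10. Smooth muscle markers averaged 0.28, -0.31 and -0.25 in double-deficient preparations, against -0.01, 0.13 and 0.04 in ApoE-deficient preparations. The B cell list ran the other way, at -0.25, 1.79 and 0.98 in double-deficient preparations, against 0.22, -0.83 and -0.72 in ApoE-deficient preparations, with 11 of 11 differences positive (median 1.44). The T cell list averaged 0.05, 0.47 and 0.12 in double-deficient preparations, against -0.01, -0.19 and -0.25 in ApoE-deficient preparations. How far RNA of these other cells contributed to the endothelial genes was not tested.

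The other endothelial lists in CD115+ cells were mostly negative and none of their genes passed the adjusted threshold. Of the 25 further pan-endothelial genes 3 were positive (median -0.10). Ece1 was lower at an unadjusted p under 0.05 (-0.33, SE 0.10), and S1pr1, the receptor by which lymphocytes leave lymphoid tissue and which endothelium also bears, was higher (0.81, SE 0.26), where 2.33% and 2.06% of all genes were. Positive differences made up 0 of 9 genes of fat capillaries, 1 of 11 junction partners, 1 of 10 venous and lymphatic genes, 1 of 11 ligands and 4 of 14 arterial and Notch genes. Among the junction partners Jup (-0.30, SE 0.10) and Ctnna1 (-0.16, SE 0.06) were lower at that threshold, and in the venous list Nr2f2, which directs venous fate, was lower (-0.40, SE 0.16). Notch1, which acts in blood cells as well, was higher at 0.34 (SE 0.10). Of 18 transcription factors 7 were positive, with Ets2 at 0.25 (SE 0.10).

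Whether the 2 tissues differed in their genotype difference was tested over the 14 arrays jointly, as aorta minus CD115+. None of the 31 genes passed the adjusted threshold (0% of all genes did), and 3 were past it unadjusted (9.68%), against 6.9% of all genes (3.41% higher and 3.49% lower). These were Cdh5 at 0.58 (SE 0.22), Erg at 0.58 (SE 0.25) and Nos3 at 0.48 (SE 0.21), with adjusted p of 0.658, 0.7 and 0.7 (limma), each above 0 because the aorta difference was positive and the CD115+ difference negative. In all, 20 genes were positive in aorta and negative in CD115+ cells, and 4 the reverse. These 4 were Icam2, Fli1, Lyl1 and Klf2, of which Fli1 had the largest contrast at -0.76 (SE 0.38). Pecam1, Vwf, Podxl and Aplnr were positive in both tissues, and Cldn5, Clec14a and Plvap negative in both. The plot of both differences sets the genes out in this way, with SE bars that cross 0 on at least 1 axis for most genes. Other lists shared these directions. Over all genes 52.8% were positive in aorta and 44.7% in CD115+ cells. Smooth muscle markers were positive in 11 of 12 and 0 of 12, and adipocyte markers in 8 of 10 and 0 of 10. Markers of pericytes and fibroblasts were positive in 8 of 11 and 0 of 11. T cell markers ran the other way, at 0 of 10 and 10 of 10, and B cell markers at 1 of 11 and 11 of 11.

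**Figure D5:**
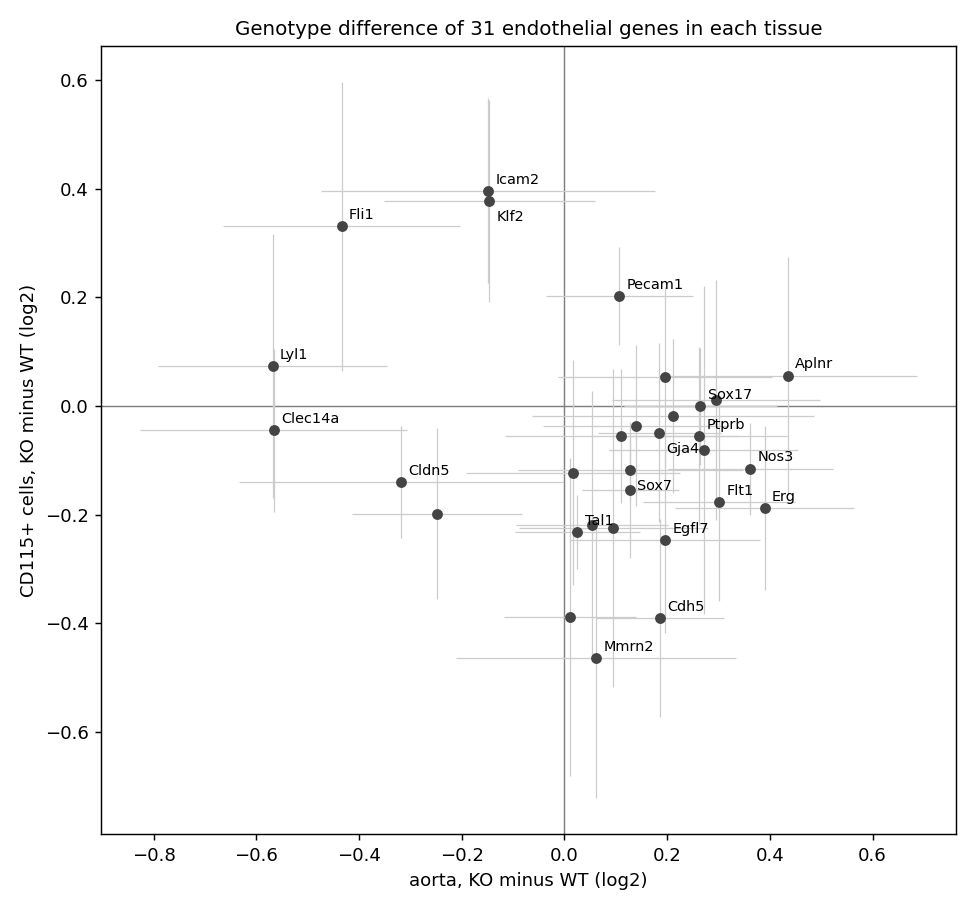
Double-deficient minus ApoE-deficient difference of each endothelial gene in aorta (x axis, log2) and in CD115+ cells (y axis, log2), with SE bars from limma and names for the 10 genes of smallest p in each tissue. Icam2, Klf2, Fli1 and Lyl1 lie in the upper left, and Cdh5, Erg, Nos3 and Flt1 are among the 20 genes in the lower right.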

How the data were processed

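The authors deposited 1 table of log2 values (the base 2 is assumed) for 33793 probe sets on 14 arrays, biotin-labelled after amplification from 1 ng of RNA per the labels' protocols. How arrays were normalized and summarised is not given in these sources. The median of every probe set was 0 within 1e-06 in each tissue, so the deposited values were centred beforehand and levels are lost. Array medians ran from -0.0077 to 0.0052. The number of arrays limits the precision. Groups came from sample titles. A platform annotation gave 23521 probe sets 1 symbol, 1814 several and 8458 none. Probe sets with 1 symbol were averaged per gene.

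Genes were fitted within each tissue, and jointly for the difference between tissues, with limma 3.58.1 (lmFit, eBayes) in R 4.3.3 and Benjamini-Hochberg adjustment at 0.05. Scripts were tested on simulated data. Named genes were all members and up to 4 genes of smallest p per list and tissue, with per-array values for leading members. The members and lists were chosen with earlier results of these data known. The p-values measure only the spread between these samples, which may in part be technical. Alternatives covered scaling, probe sets, variance models, a level filter, the replicate number as a block and leaving out each array.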

Additional observations from a re-analysis of the deposited data

Results flagged for a closer look

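In 2 of 66 aorta groups of 4 arrays (the endothelial genes, their mean and Ltbr, each in both genotypes) 1 array lay far from the other 3 by Dixon's test, which flags about 1 in 20 groups by chance. Clec14a in double-deficient aortas had replicate 3 at -0.99, against -0.08 to 0.0011 in the other 3, a gap of 0.915 of the range. Kdr in ApoE-deficient aortas had replicate 1 at 0.48, against -0.09 to -0.07 in the other 3, a gap of 0.972 of the range.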

How the results depend on the processing

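None of the 31 endothelial genes passed the adjusted threshold in any comparison or alternative run. Their differences kept their sign in 451 of 472 aorta values, 369 of 406 CD115+ values and 609 of 620 values between tissues. Part of these values could not change sign. With 1 probe set per gene, the choice of probe set left each difference as it was. Robust empirical Bayes, the fit over 14 arrays and the level filter changed only the SE and p, as did the replicate block in aorta. Genes past the threshold in aorta, 1 as reported, numbered 0 with the probe set of largest SD, robust empirical Bayes, array weights or only genes of high level bound, and 19 in 1 fit over all 14 arrays. Endothelial genes at an unadjusted p under 0.05, 1 in aorta, numbered 2 with array weights, 4 in the fit over 14 arrays, 0 among genes of high level bound and 6 with the replicate block. In CD115+ cells, 1 as reported, they numbered 10 with array weights, 0 with the replicate block and 0 among genes of high level bound, where the median was 0.20 over 3 genes. Between tissues, 3 as reported, they numbered 11 with array weights and 1 with the replicate block. The share of all genes called under each of these alternatives is not given here. The counts therefore do not show whether endothelial genes stood out. Deviations of same-numbered samples correlated at -0.15 to 0.17 in aorta and at -0.47 and -0.29 in CD115+ cells. These few values gave no sign that the numbers pair the samples, and they are too few to exclude it.

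Leaving out 1 array at a time gave 0 to 74 genes past the threshold in aorta, 0 in CD115+ cells and 0 to 58 between tissues (74 without ApoE-deficient aorta replicate 3, 58 without double-deficient CD115+ replicate 1). Endothelial genes past it unadjusted numbered 0 to 6, 0 to 17 and 0 to 10, and medians ran from 0.08 to 0.25, from -0.21 to -0.02 and from 0.14 to 0.36. The 6 came without ApoE-deficient aorta replicate 3, where 9.79% of all genes were past it unadjusted. The 17 came without double-deficient CD115+ replicate 1, where 16.2% were. For the 10 between tissues that share is not given here. The causes were not tested.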

Other observations

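Double-deficient CD115+ replicate 2 also had the highest platelet signal. Its platelet list averaged 1.69, against -0.62 and -0.38 in double-deficient replicates 1 and 3 and -0.23 to 0.31 in ApoE-deficient preparations, and it was the highest array for 10 of 10 platelet genes. Vwf, which megakaryocytes pack into platelets, was at 0.20, 0.24 and -0.35 in double-deficient preparations, against -0.01, 0.01 and -0.07 in ApoE-deficient preparations. Whether platelet RNA contributed to the Vwf values was not tested. The monocyte list averaged -0.60, -0.11 and 0.76 in double-deficient preparations, against 0.32, -0.14 and 0.08 in ApoE-deficient preparations, and its double-deficient replicate 1 was the lowest array for 9 of 12 genes.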
